A study of Mus musculus with 9 samples.

Results

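Copying and transcribing mitochondrial DNA depends on proteins encoded in the nucleus, and 10 mouse genes of this machinery are described here: Polg, Polg2, Twnk and Ssbp1 for replication, Polrmt, Tfam, Tfb1m and Tfb2m for transcription, and Nrf1 and Pprc1 as nuclear regulators. They were taken by name from the deposited annotation, and are 10 of the 55421 genes in the count table. Tfb1m, an rRNA methyltransferase related to Tfb2m, is counted with the transcription genes by its name. All 10 of 10 passed the filter on low counts and were among the 15711 genes tested. RNA came from CD8+ T cells of Pmel Ly5.1 mouse spleens, and ribosome-depleted total RNA was sequenced in 9 libraries, 3 in each of 3 groups. T cells of the MitoPositive and MitoNegative groups had spent 36 h with DM5, stromal cells of BL6 bone marrow that had been immortalised and whose mitochondria carry the red fluorescent protein DsRed. They were then sorted by flow cytometry: MitoPositive cells were DsRed-positive, that is, they held the label of the stromal mitochondria, and MitoNegative cells from the same kind of co-culture were DsRed-negative. The monoculture group had no stromal cells. All 3 groups share the genotype, a cross of a T-cell-receptor transgenic strain with a strain marked by Ly5.1, the tissue and the cell type. The stromal donor was a single line, and the titles give 0 h for every library. Libraries carry the letters B, C and D in each group, and the labels do not say whether a letter marks a separate animal or culture. The p-values here judge group differences against the scatter between these particular libraries. That scatter may be technical, so the p-values may not carry over to other animals.

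Mitochondrial DNA is a small circular genome that encodes a few core respiratory-chain subunits together with the ribosomal and transfer RNAs needed to make them. Its copying uses a dedicated polymerase, a helicase that unwinds the circle and a protein that coats the exposed single strand, while transcription uses a single-subunit RNA polymerase with a DNA-bending protein and a specificity factor. The nuclear genes for these proteins are known targets of nuclear respiratory factors and of PGC-1 family coactivators, and T cells expand this machinery when they are activated.

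The sequences around the annotated starts were compared for short motifs and GC content. The RefSeq promoter table for GRCm38.p6 held 12 promoters for the 10 genes, each covering 250 bases before to 50 bases after a start, with Twnk and Nrf1 represented by 2 starts each. The letters CCGGAAG, a core recognised by ETS factors such as GABP, were searched on both strands and occurred in 6 of the 12 promoters, those of Tfam, Polrmt, Polg, Polg2 and Ssbp1 and 1 of Twnk, where 8.86% of all 32851 promoters in the table hold it. GC content of the 12 promoters ran from 46.3 to 77%, and the median promoter in the table had 52.7%. The 120 bases before the start are shown for 5 genes with the match, with the 7 matching bases in capitals (CTTCCGG is the match on the other strand), and for Pprc1, a gene without it that rose in co-culture.
Polg, chr7:79466274-79466393, minus strand: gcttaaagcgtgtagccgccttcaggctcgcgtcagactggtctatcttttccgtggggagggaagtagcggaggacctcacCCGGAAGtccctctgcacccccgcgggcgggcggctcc
Ssbp1, chr6:40471348-40471467, plus strand: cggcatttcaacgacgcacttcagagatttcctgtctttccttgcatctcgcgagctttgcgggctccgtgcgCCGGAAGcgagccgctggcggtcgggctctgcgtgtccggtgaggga
Polrmt, chr10:79746582-79746701, minus strand: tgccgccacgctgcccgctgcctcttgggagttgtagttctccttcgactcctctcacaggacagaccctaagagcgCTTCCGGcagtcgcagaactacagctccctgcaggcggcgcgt
Polg2, chr11:106779538-106779657, minus strand: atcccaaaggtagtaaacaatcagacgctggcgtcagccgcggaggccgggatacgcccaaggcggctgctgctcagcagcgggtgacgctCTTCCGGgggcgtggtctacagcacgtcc
Tfam, chr10:71238045-71238164, minus strand: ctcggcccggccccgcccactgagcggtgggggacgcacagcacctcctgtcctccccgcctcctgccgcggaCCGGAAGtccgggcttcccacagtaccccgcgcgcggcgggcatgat
Pprc1, chr19:46056419-46056538, plus strand: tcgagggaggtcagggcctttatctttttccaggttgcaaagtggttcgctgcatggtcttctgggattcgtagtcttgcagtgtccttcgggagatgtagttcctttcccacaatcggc

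In Tfam and Ssbp1 the match began 47 bases before the start, in Polrmt 43, in Polg 38 and in Polg2 29. Twnk carried it at its second start only, at 110 and at 66 bases before that start. Tfb1m, Tfb2m, Nrf1 and Pprc1 had no CCGGAAG in these windows. The palindromic NRF1 motif with any middle bases, searched on both strands, was found for Polrmt only, as a pair of overlapping matches at and just before the start, and in 6.23% of all promoters. The NRF1 motif with its middle bases fixed and the E-box CACGTG were found for 0 of 10 genes, and in 0.971% and 7.15% of all promoters. These are matches of letters, and binding was not measured. Of the genes called against monoculture, described next, Polg and Ssbp1 hold CCGGAAG in these windows and Nrf1, Pprc1 and Tfb2m do not.

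Libraries held 53546152 to 74722832 counts, and each member had between 562 and 5301 reads in every library. In bulk RNA, fewer cells of a type and less RNA per cell cannot be told apart. The T-cell identity was present in every library: all 10 CD8+ T-cell markers were detected, summing to 5240 to 5520 CPM (counts scaled by library size; here by total counts, and for single genes by TMM-adjusted totals) in MitoPositive, 5270 to 5480 in MitoNegative and 5990 to 6580 in monoculture libraries, and 8 and 9 of 10 were lower than in monoculture. Stromal markers, 9 of 11 of them tested and 8 of these higher in each sorted group than in monoculture, summed to 10.8 to 29.0 CPM in MitoPositive, 10.7 to 29.0 in MitoNegative and 0.628 to 0.996 in monoculture, while Dcn and Lum had 0 to 3 reads in every library. B-cell markers, 6 of 6 tested and 4 of these lower in each sorted group, summed to 280 to 312 CPM in MitoPositive, 372 to 451 in MitoNegative and 676 to 704 in monoculture libraries. Most of that sum was Ighm, the IgM heavy chain, at 271.1, 388.2 and 630.4 CPM, which was also called between the sorted groups (log2 fold change -0.52, adjusted p = 0.0464, edgeR). That call was lost in 8 of 20 alternatives: DESeq2's size factors (0.0511), without letter B (0.467) or C (1), and without B or C of either sorted group or monoculture C (0.062 to 0.267). Myeloid markers (5 of 6 tested) summed to 6.12 to 7.29, 4.8 to 8.54 and 4.01 to 4.81 CPM in MitoPositive, MitoNegative and monoculture libraries, with 1 higher (Cd68) and 2 lower (Adgre1 and Lyz2) in MitoPositive cells and 1 higher (Cd68) and 1 lower (Adgre1) in MitoNegative cells. Natural killer cell markers (2 of 3 tested) summed to 1.37 to 1.58, 2.80 to 4.13 and 1.75 to 3.39 CPM, both lower than monoculture in MitoPositive cells and neither called in MitoNegative cells. CD4+ T-cell markers (2 of 3 tested) summed to 0.990 to 1.57, 1.17 to 1.94 and 1.45 to 3.65 CPM, with Cd4 called lower in MitoPositive cells. In these marker counts, higher and lower than monoculture mean called by the edgeR test described below. Of all tested genes, 22.3% and 20.6% were called higher in MitoPositive and MitoNegative cells, and 19.9% and 18.3% lower. The part of all these lists in the differences described below was not tested.

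Levels between genes were compared as CPM per kilobase of exon. The length counts all annotated exon bases of a gene, such as 8360 for Ssbp1 and 10742 for Polg, and can exceed that of a single transcript. By CPM alone, Tfam (68.6) and Polg (68.5) were level and Ssbp1 ranked 5, so the order below depends on this length. Tfam, the DNA-bending packaging and transcription factor, was the highest of the 10 at a mean of 15.5 CPM per kilobase over the 9 libraries (range 14.0 to 17.5), above 79.5% of tested genes. Tfb2m (9.30) and Twnk (8.94) followed and overlapped each other, and neither overlapped Tfam or the next gene, Polg (6.37). Polrmt (5.63), Nrf1 (5.41), Pprc1 (4.69), Ssbp1 (3.62), Tfb1m (3.02) and Polg2 (2.65) came after it, and each of these overlapped its neighbour in the order. The whole span from Tfam to Polg2 was 5.84-fold, and even Polg2 stood above 45.0% of tested genes, whose median was 3.64 CPM per kilobase. By group means, Pprc1 ranked 6 in MitoPositive, 7 in MitoNegative and 8 in monoculture cells, and Nrf1 ranked 7, 6 and 5 in these groups.

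**Figure D1:**
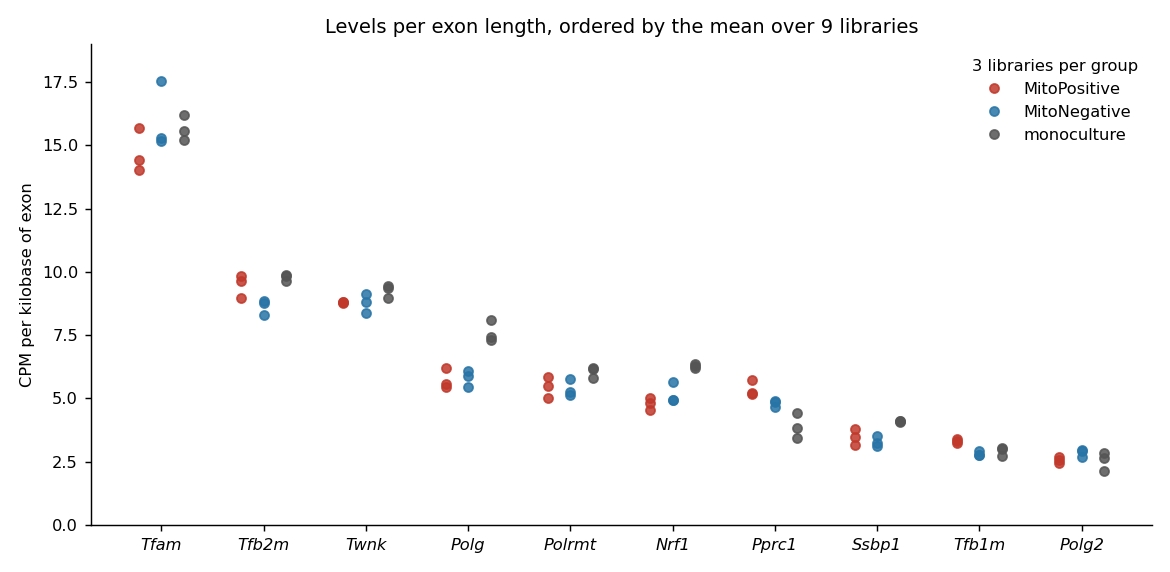
Level of each gene in CPM per kilobase of exon (vertical axis, linear) in 9 libraries, with 1 point per library and 3 points per group, genes ordered by their mean. Tfam lies between 14.0 and 17.5 and overlaps no other gene, and Polg2 lies lowest, between 2.14 and 2.95.

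Co-cultured T cells differed from monoculture T cells in a few of these genes, and in both directions. Polg, the catalytic subunit of the mitochondrial DNA polymerase, Ssbp1, the single-stranded DNA-binding protein, and Nrf1, a transcription factor for respiratory genes, were lower in both sorted groups than in monoculture. Pprc1, the PGC-1-related coactivator, was higher in both, and Tfb2m was lower in MitoNegative cells. Against monoculture, edgeR's quasi-likelihood test with Benjamini-Hochberg adjustment over 15711 genes called 4 of 10 members in MitoPositive cells, 1 higher and 3 lower, where 42.2% of all tested genes passed (22.3% higher, 19.9% lower). In MitoNegative cells it called 5 of 10, 1 higher and 4 lower, where 38.9% of all tested genes passed (20.6% higher, 18.3% lower). Both shares are near their backgrounds, so these counts are no result about the 10 genes. At an unadjusted p under 0.05 the counts were 4 and 6 of 10, where 49.9% and 47.0% of tested genes passed. The median log2 fold change of the 10 was -0.08 and -0.12 in the 2 comparisons, against 0.00 and 0.01 over all tested genes, and the median absolute change was 0.17 in both, against 0.29 and 0.27 over all. The 2 comparisons share the 3 monoculture libraries, so their values are given side by side and not as separate evidence.

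Groups that did not overlap gave a similar picture. MitoPositive libraries lay clear of all monoculture libraries for 6 of 10 members, 2 higher and 4 lower, where 51.6% of tested genes did so (27.3% higher, 24.3% lower). MitoNegative libraries lay clear of them for 6 of 10, 1 higher and 5 lower, where 48.7% of tested genes did (25.9% higher, 22.9% lower). Summed over the 4 replication genes, the level was 137.1 ± 2.61 CPM in MitoPositive, 137.2 ± 2.34 in MitoNegative and 164.1 ± 6.02 in monoculture cells (SD, n = 3 each). Most of that difference was Polg, at 61.6 and 62.2 CPM in MitoPositive and MitoNegative against 81.6 in monoculture cells. The 4 transcription genes summed to 129.4 ± 2.28, 130.6 ± 5.53 and 135.8 ± 2.17 CPM in the same groups, and the 2 regulators to 82.9 ± 3.35, 83.4 ± 4.82 and 88.9 ± 4.01 CPM, where a lower Nrf1 and a higher Pprc1 partly offset each other.

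**Figure D2:**
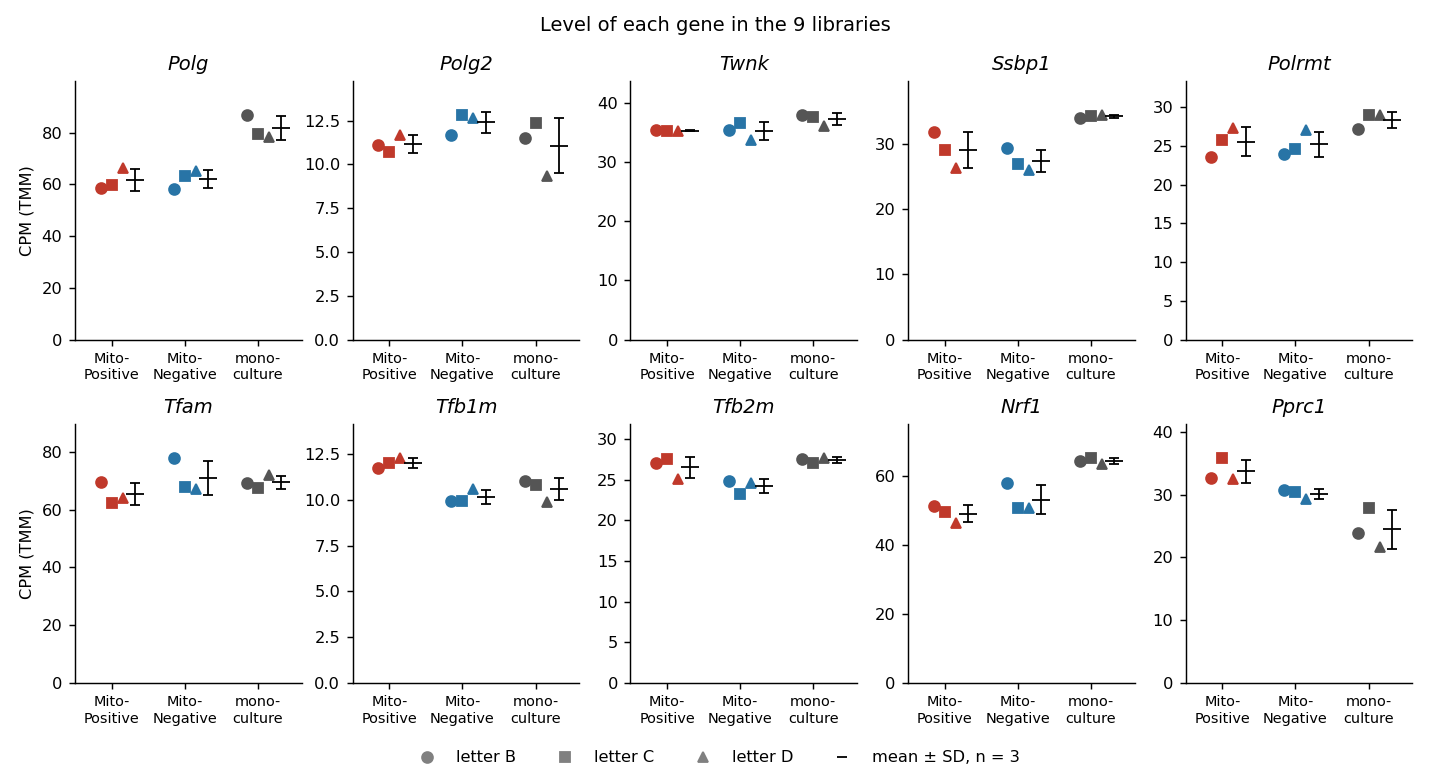
Level in CPM of each of the 10 genes in the 3 MitoPositive, 3 MitoNegative and 3 monoculture libraries, 1 panel per gene, with a circle, square or triangle for letters B, C and D and a black mark for the mean with its SD (n = 3). Polg, Ssbp1 and Nrf1 sit lower and Pprc1 sits higher in both sorted groups than in monoculture.

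Among the replication genes, Polg changed the most. Polg (ENSMUSG00000039176.17, chr7:79446231-79466362, minus strand, GRCm38) had 58.7, 59.6 and 66.5 CPM in MitoPositive libraries B, C and D, 58.4, 63.0 and 65.2 in MitoNegative libraries and 86.9, 79.6 and 78.4 in monoculture libraries. Every monoculture library was above every sorted library, and the sorted groups interleaved. The level was 1.32-fold lower in MitoPositive cells than in monoculture (log2 fold change -0.41, SE 0.0685, adjusted p = 0.000577, edgeR) and 1.31-fold lower in MitoNegative cells (-0.39, SE 0.0684, adjusted p = 0.000885). A change of that size or larger was seen in 38.7% and 37.0% of tested genes. Exon bases of Polg overlap those of Fanci on the opposite strand by 921 bases, 8.57% of its exon length; Fanci, a DNA-repair gene, averaged 6.45, 6.20 and 8.26 CPM in MitoPositive, MitoNegative and monoculture cells and passed neither test (adjusted p = 0.247 and 0.19). Reads on shared bases cannot be assigned without knowing whether strand was used in counting, which is not given in the sources used here.

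Polg2, the accessory subunit that helps Polg hold on to its template, passed neither test (ENSMUSG00000020718.12, chr11:106768253-106779537, minus strand). Its level was 11.1, 10.7 and 11.7 CPM in MitoPositive libraries, 11.7, 12.8 and 12.7 in MitoNegative and 11.5, 12.4 and 9.31 in monoculture, with all groups overlapping. The log2 fold change against monoculture was 0.02 in MitoPositive cells (95% interval -0.22 to 0.25, adjusted p = 0.919) and 0.17 in MitoNegative cells (-0.07 to 0.40, adjusted p = 0.25). Its exons share 132 bases, 3.03%, with Milr1 on the opposite strand, which averaged 10.2 and 10.7 CPM in MitoPositive and MitoNegative against 5.84 in monoculture cells. Per length, the ratio of Polg to Polg2 was 2.24 ± 0.0824 in MitoPositive, 2.03 ± 0.0487 in MitoNegative and 3.03 ± 0.404 in monoculture cells (SD, n = 3), and all 3 monoculture libraries lay above all 6 sorted ones, a description with no test.

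Ssbp1 (ENSMUSG00000029911.14, chr6:40471352-40484700, plus strand) had 31.8, 29.1 and 26.3 CPM in MitoPositive libraries, 29.3, 26.9 and 26.0 in MitoNegative and 33.9, 34.2 and 34.4 in monoculture. The 3 monoculture libraries differed little from each other and lay above all sorted libraries. It was 1.18-fold lower in MitoPositive cells (log2 fold change -0.23, SE 0.075, adjusted p = 0.0253, edgeR) and 1.25-fold lower in MitoNegative cells (-0.32, SE 0.075, adjusted p = 0.00559). The MitoPositive call is not stable: leaving out MitoPositive D raised the adjusted p to 0.104, leaving out MitoPositive C to 0.0644, MitoNegative C to 0.0511, monoculture C to 0.0554 and monoculture D to 0.0569. Scaling by total counts gave 0.0543, and fitting only the 6 libraries compared gave 0.0505. The MitoNegative call was lost without letter C (adjusted p = 0.0893).

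Twnk, the mitochondrial helicase, passed neither test (ENSMUSG00000025209.5, chr19:45005663-45012762, plus strand). Its level was 35.3, 35.1 and 35.3 CPM in MitoPositive libraries, 35.4, 36.6 and 33.6 in MitoNegative and 37.9, 37.6 and 36.0 in monoculture libraries, lower in all MitoPositive libraries than in any monoculture one by a small margin (log2 fold change -0.08, SE 0.0542, adjusted p = 0.278). MitoNegative against monoculture also gave -0.08 with adjusted p = 0.278, and those groups overlapped. Its exons share 507 bases, 12.6% of their length, with Mrpl43 on the opposite strand, which averaged 58.1, 56.9 and 55.0 CPM in MitoPositive, MitoNegative and monoculture cells and passed no test.

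Among the transcription genes, Tfb2m, the specificity factor that opens mitochondrial promoters with Polrmt, was the only one called (ENSMUSG00000026492.11, chr1:179528055-179546267, minus strand). It had 27.0, 27.6 and 25.1 CPM in MitoPositive libraries, 24.8, 23.3 and 24.6 in MitoNegative and 27.6, 27.0 and 27.7 in monoculture libraries. The MitoNegative libraries lay below all others, and it fell 1.13-fold there against monoculture (log2 fold change -0.18, SE 0.061, adjusted p = 0.0346, edgeR). In MitoPositive cells the difference was -0.05 (SE 0.0609, adjusted p = 0.571). The MitoNegative call is close to the threshold, and leaving out any 1 of the 6 MitoNegative or monoculture libraries ended it, with adjusted p from 0.0517 to 0.164, as did total counts (0.0627), no filter (0.11) and a fit of only those 6 libraries (0.0666).

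Polrmt, the mitochondrial RNA polymerase (ENSMUSG00000020329.12, chr10:79736123-79746581, minus strand), had 23.6, 25.7 and 27.3 CPM in MitoPositive libraries, 24.0, 24.6 and 27.0 in MitoNegative and 27.1, 29.0 and 28.9 in monoculture libraries. Its MitoNegative libraries lay just below monoculture and its MitoPositive ones overlapped it. The log2 fold changes were -0.15 in MitoPositive (SE 0.0734, adjusted p = 0.121) and -0.17 in MitoNegative cells (SE 0.0734, adjusted p = 0.0895). Same-letter residuals of MitoNegative and monoculture libraries correlated at 0.111 to 0.213. With the letter as a replicate block Polrmt passed in MitoNegative cells (adjusted p = 0.032), where 44.9% of all tested genes passed.

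Tfam (ENSMUSG00000003923.14, chr10:71225464-71238280, minus strand) had 69.6, 62.3 and 64.1 CPM in MitoPositive libraries, 77.9, 67.9 and 67.2 in MitoNegative and 69.1, 67.5 and 71.8 in monoculture libraries, with overlap between each pair of groups. Its log2 fold change against monoculture was -0.09 in MitoPositive (95% interval -0.24 to 0.06, adjusted p = 0.33) and 0.03 in MitoNegative cells (-0.12 to 0.18, adjusted p = 0.754). Tfb1m, an rRNA methyltransferase of the mitochondrial ribosome related to Tfb2m (ENSMUSG00000036983.7, chr17:3519256-3557781, minus strand), had 11.7, 12.0 and 12.3 CPM in MitoPositive libraries, 9.92, 9.95 and 10.6 in MitoNegative and 11.0, 10.8 and 9.89 in monoculture libraries. Its MitoPositive libraries lay above all others, but the tests against monoculture did not pass (log2 fold change 0.18, SE 0.0833, adjusted p = 0.101; -0.06 and adjusted p = 0.616 for MitoNegative cells). Its exons share 142 bases, 3.93%, with Tiam2 on the opposite strand, which had 3 to 13 reads per library and was not tested.

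Both regulators changed, in opposite directions. Nrf1 (ENSMUSG00000058440.14, chr6:30047988-30153458, plus strand) had 51.4, 49.5 and 46.5 CPM in MitoPositive libraries, 58.1, 50.8 and 50.8 in MitoNegative and 64.4, 65.3 and 63.6 in monoculture libraries. All sorted libraries lay below the monoculture libraries. It was 1.31-fold lower in MitoPositive cells (log2 fold change -0.39, SE 0.0647, adjusted p = 0.000511, edgeR) and 1.21-fold lower in MitoNegative cells (-0.27, SE 0.0645, adjusted p = 0.0055; 0.114 without letter C). Pprc1 (ENSMUSG00000055491.14, chr19:46044886-46072915, plus strand) acts with Nrf1 at promoters of respiratory genes and responds quickly to growth signals. It had 32.8, 35.9 and 32.5 CPM in MitoPositive libraries, 30.8, 30.4 and 29.3 in MitoNegative and 24.0, 27.8 and 21.7 in monoculture libraries. All 6 sorted libraries lay above the 3 monoculture libraries. It was 1.38-fold higher in MitoPositive cells (log2 fold change 0.46, SE 0.0855, adjusted p = 0.00109) and 1.23-fold higher in MitoNegative cells (0.30, SE 0.0855, adjusted p = 0.0154; 0.128 without letter B and 0.0522 without letter D). The ratio of Pprc1 to Nrf1 per length was 1.12 ± 0.073 in MitoPositive, 0.930 ± 0.0577 in MitoNegative and 0.621 ± 0.0705 in monoculture cells (SD, n = 3), with no overlap between the groups; it is a description with no test. Pprc1 shares 177 exon bases, 2.82%, with Ldb1 on the opposite strand, which fell where Pprc1 rose (180 and 189 CPM in MitoPositive and MitoNegative against 244 in monoculture cells, adjusted p = 0.000101 and 0.000426).

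**Figure D3:**
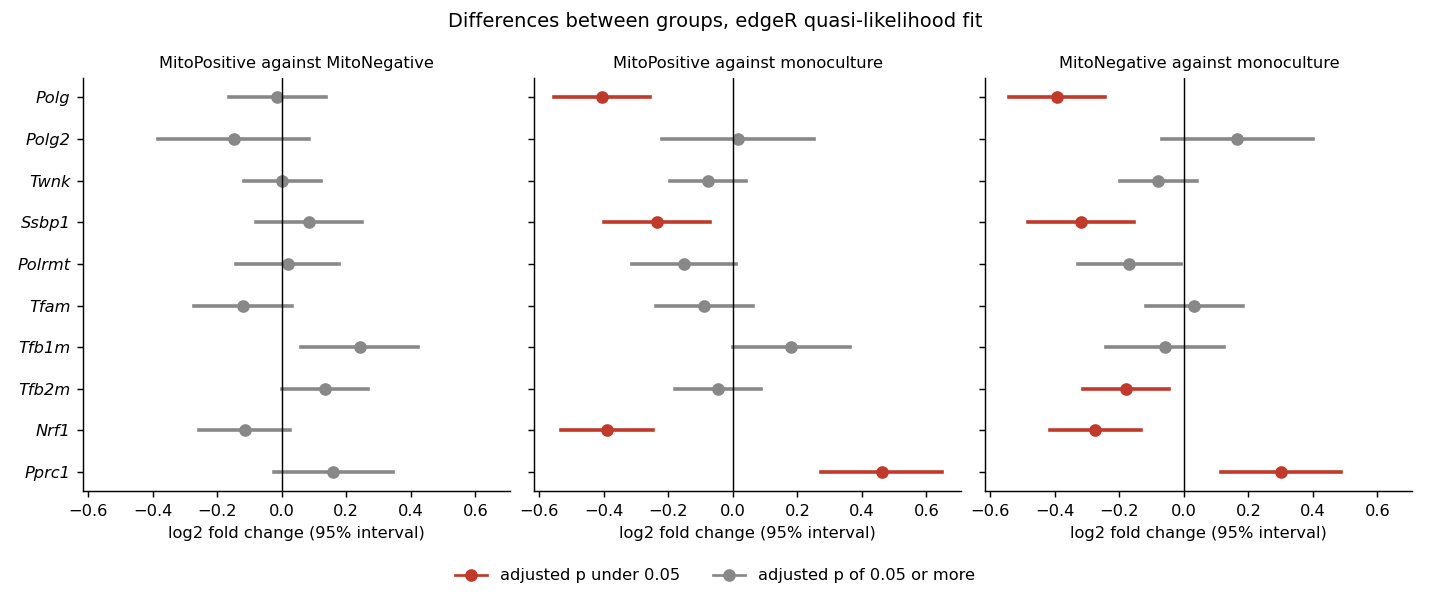
Log2 fold change of each gene in the 3 comparisons (horizontal axis) as a point with its 95% interval, red where the adjusted p from edgeR was under 0.05 and grey otherwise. Polg, Ssbp1, Nrf1 and Pprc1 are red in both comparisons with monoculture, and all 10 genes are grey in MitoPositive against MitoNegative.

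Between the groups sorted by DsRed, the median absolute log2 fold change of the 10 was 0.12, against 0.11 over all tested genes. No member passed between MitoPositive and MitoNegative cells. The edgeR test called 0 of 10, where 0.165% of all tested genes passed (26 genes, 0.0891% higher and 0.0764% lower). DESeq2 and limma voom also called 0 of 10, where they called 418 and 33 of the 15711 genes. With so few genes called by each, 0 of 10 is no result about these genes. At an unadjusted p under 0.05 the count was 2 of 10, Tfb1m and Tfb2m, where 10.5% of tested genes passed. Polg and Twnk were close to equal, with log2 fold changes of -0.01 (95% interval -0.16 to 0.14) and 0.00 (-0.12 to 0.12), intervals that reach a change of 1.12-fold for Polg and 1.09-fold for Twnk. The comparison uses the same MitoPositive and MitoNegative libraries as those above.

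Tfb1m had the widest difference between the sorted groups, at 12.0 ± 0.279 CPM in MitoPositive and 10.2 ± 0.373 in MitoNegative cells (SD, n = 3; log2 fold change 0.24, SE 0.0832, adjusted p = 0.293). Pprc1 (0.16, adjusted p = 0.559) and Tfb2m (0.13, adjusted p = 0.473) were also higher without overlap, so 3 of 10 members did not overlap on the higher side, where 10.5% of tested genes did so, and 0 of 10 on the lower side, where 9.55% did. Within each letter, MitoPositive exceeded MitoNegative for Tfb1m by 0.241, 0.268 and 0.215 on the log2 CPM scale in B, C and D, and for Pprc1 by 0.09, 0.24 and 0.15. For Tfam the differences were -0.16, -0.13 and -0.07, and for Nrf1 -0.18, -0.04 and -0.13. Tfb1m, Tfb2m, Pprc1 and Ssbp1 were higher in MitoPositive cells for 3 of 3 letters, Tfam, Nrf1 and Polg2 lower for 3 of 3, and the other 3 were mixed. Of all tested genes, 25.2% were higher and 24.7% lower in every letter, 49.9% together, and some of the member differences were small (Ssbp1 0.015 and Tfb2m 0.031 in letter D).

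Same-letter residuals of MitoPositive and MitoNegative libraries correlated at 0.339 to 0.459, though the labels state no pairing. The letter was also fitted here as a replicate block. With it, all 9 libraries gave 0 of 10 members, where 2.34% of tested genes passed. When only the 6 sorted libraries were fitted with the block, an alternative chosen after seeing the data, 3 of 10 passed, where 18.2% of genes passed: Tfam (log2 fold change -0.12, adjusted p = 0.0248), Tfb1m (0.25, adjusted p = 0.0127) and Pprc1 (0.16, adjusted p = 0.015). The result between sorted groups therefore depends on that choice.

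**Figure D4:**
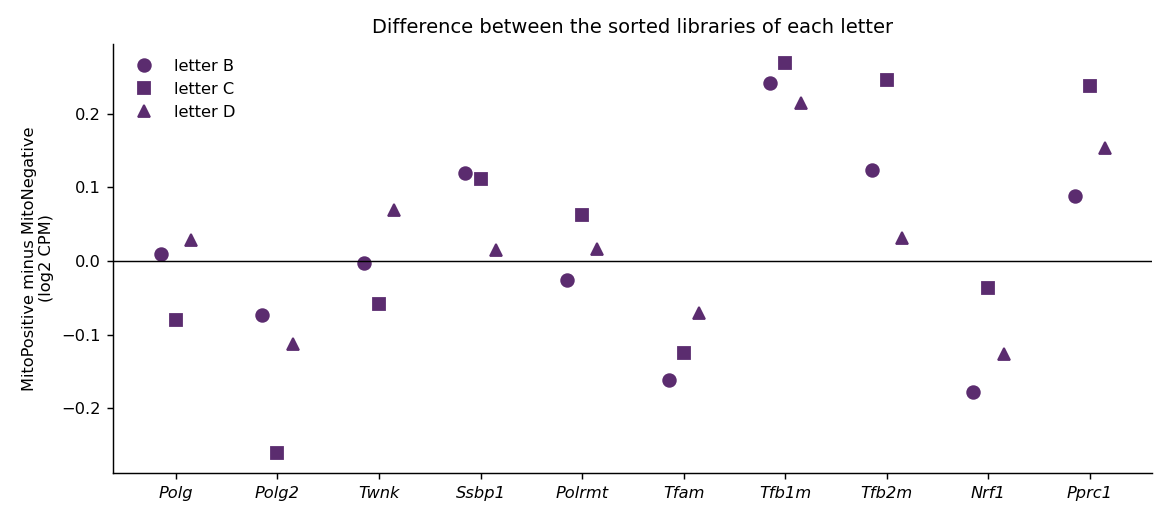
Difference in log2 CPM, MitoPositive minus MitoNegative (vertical axis), for each gene and each letter (circle B, square C, triangle D), with a line at 0. Tfb1m is above 0 by 0.215 to 0.268 for all letters, and Tfam, Nrf1 and Polg2 are below 0 for all letters.

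Related genes gave a context for the 10. Of 28 genes of mitochondrial DNA maintenance and nucleotide supply, 5 were higher and 4 lower than monoculture in MitoPositive cells, and likewise 5 and 4 in MitoNegative cells. That is 32.1% of the list in each, against 42.2% and 38.9% of all tested genes. Slc25a36, a pyrimidine nucleotide carrier of the inner membrane, averaged 115.3 ± 6.07 and 111.8 ± 5.78 CPM in MitoPositive and MitoNegative against 67.1 ± 4.63 in monoculture cells (SD, n = 3; log2 fold change 0.78 and 0.74, adjusted p = 4.71e-06 and 1.05e-05, edgeR). Atad3a, an inner-membrane ATPase linked to nucleoids, and the topoisomerase Top1mt rose in both (0.46 and 0.26; 0.44 and 0.28), while Rrm1, a subunit of ribonucleotide reductase, fell in both (-0.48 and -0.55). Fen1, a flap nuclease, fell by 0.37 and 0.51 on the log2 scale, and Slc25a33, another pyrimidine nucleotide carrier, rose by 0.29 and 0.36. The median of the list was 0.02 and -0.02.

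Of 31 genes of mitochondrial RNA processing, 11 were higher and 2 lower in MitoPositive cells, and 6 were higher and 2 lower in MitoNegative cells, against monoculture. That is 41.9% and 25.8% of the list, against 42.2% (22.3% higher, 19.9% lower) and 38.9% (20.6% higher, 18.3% lower) of all tested genes. The helicase Supv3l1 rose by 0.48 and 0.39 on the log2 scale, the poly(A) polymerase Mtpap by 0.39 and 0.46, Fastkd1, of a family of mitochondrial RNA-binding proteins, by 0.45 and 0.37, and Pnpt1, the polynucleotide phosphorylase, by 0.33 and 0.35. The 2 lower genes, named after their values were seen, were Mrm2, an rRNA methyltransferase (-0.37 and -0.34), and Hsd17b10, a subunit of mitochondrial RNase P (-0.27 and -0.30). Tefm, the elongation factor of Polrmt, rose by 0.41 in MitoPositive cells (adjusted p = 0.00448), and its MitoNegative difference was 0.24 (adjusted p = 0.0619). The medians of the list were 0.09 and 0.04, and all genes together had 0.00 and 0.01.

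Among 18 nuclear regulators of mitochondrial biogenesis, 16 were tested, and Ppara and Ppargc1a were below the filter, Ppargc1a with 0 to 1 read in MitoPositive, 0 in MitoNegative and 0 to 2 in monoculture libraries. In MitoPositive cells 4 were higher and 6 lower than monoculture, and in MitoNegative cells 4 were higher and 3 lower, 62.5% and 43.8% of those tested, against 42.2% and 38.9% of all tested genes. The 4 higher genes were Myc, Gabpb1, Perm1 and Pparg in both; the last pair averaged under 1 CPM in every group and are named after their values were seen. Pparg, at 0.766 CPM in MitoPositive and 0.122 in MitoNegative cells, was also the 1 gene of the list called between them (adjusted p = 0.046), a call at the threshold that was lost in 8 of the 19 alternatives that gave it an adjusted p. These left out letter B (0.4), letter C (0.964) or 1 library: MitoPositive B or C, MitoNegative B, C or D, or monoculture C (0.0556 to 0.267). Myc, which drives growth and biogenesis genes, averaged 176.0 ± 13.3 and 144.4 ± 9.68 CPM in MitoPositive and MitoNegative against 108.2 ± 7.42 in monoculture cells (log2 fold change 0.70 and 0.42, adjusted p = 2.42e-05 and 0.0012, edgeR). Genes for GABP, the factor whose recognition core was searched for above, went separate ways: Gabpb2 fell (-0.53 and -0.45), Gabpb1 rose (0.30 and 0.40) and Gabpa fell (-0.22 and -0.17, adjusted p = 0.00503 and 0.0231; named after its values were seen). Ppargc1b, the other PGC-1 coactivator detected beside Pprc1, fell in MitoPositive cells (-0.53, adjusted p = 0.00751), and its MitoNegative value was -0.13 (adjusted p = 0.491). Creb1, a signal-responsive transcription factor, fell in MitoPositive cells (-0.46, adjusted p = 0.000574), with -0.20 in MitoNegative cells (adjusted p = 0.0559), and Hcfc1, a chromatin-bound cofactor, fell in both (-0.30 and -0.25).

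Of the 13 protein-coding genes of the mitochondrial genome itself, 2 were higher and 2 lower in MitoPositive cells and 4 higher and 1 lower in MitoNegative cells, against monoculture. That is 30.8% and 38.5% of them, against 42.2% and 38.9% of all tested genes. Group means were only 0.733 to 1.71 CPM for mt-Nd4l, mt-Nd3 and mt-Atp8 and 8.48 to 13.25 CPM for mt-Co2, mt-Co3 and mt-Atp6. These levels lay far below that of mt-Co1. The shares include mt-Nd4l, mt-Nd3 and mt-Atp8, whose errors were the widest of the 13. Their SE was 0.199, 0.227 and 0.179 in MitoPositive cells against monoculture. The part of mapping or counting in these low levels was not tested. mt-Co1 was higher (12350 ± 1360 and 14410 ± 684 CPM, against 9233 ± 530 in monoculture; log2 fold change 0.42 and 0.64, adjusted p = 0.00897 and 0.000784), and mt-Cytb was lower (-0.50 and -0.42, adjusted p = 0.00192 and 0.00665). Of the complex I subunits, mt-Nd6 rose in both (0.34 and 0.30), mt-Nd4 passed in MitoPositive cells (-0.38) and mt-Nd1 and mt-Nd2 in MitoNegative cells (0.44 and 0.30). The rRNA mt-Rnr1 had 1883 ± 102, 3840 ± 264 and 579.9 ± 44.8 CPM in MitoPositive, MitoNegative and monoculture cells and passed in every comparison, with a log2 fold change of -1.03 (adjusted p = 0.0015) between the sorted groups, a call lost without letter B (0.104) or letter C (0.347). The other rRNA, mt-Rnr2, had 3164 ± 380, 4410 ± 227 and 1694 ± 226 CPM in these groups, passed against monoculture in both and did not pass between the sorted groups (-0.48, adjusted p = 0.125; called in 4 of 20 alternatives, with 0.0222 under the replicate block). Ribosomal RNA was depleted before sequencing, and the part of depletion in these values was not tested.

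Of 20 genes of nuclear DNA replication and proliferation, 0 were higher and 4 lower in MitoPositive cells, and 1 (Cdt1) was higher and 8 lower in MitoNegative cells, against monoculture. That is 20% and 45% of the list, against 42.2% (19.9% lower) and 38.9% (18.3% lower) of all tested genes. The widest differences were not called: Ccna2 at -1.45 and -1.48 and Mki67 at -1.38 and -1.41, both named after their values were seen. Their libraries scattered widely, with Mki67 at 42.6 ± 29.3, 41.6 ± 23.7 and 110.7 ± 40.3 CPM in MitoPositive, MitoNegative and monoculture cells (SD, n = 3). Among the called genes, the thymidylate synthase gene Tyms fell by 0.62 and 0.81 on the log2 scale and Mcm6, a helicase subunit, by 0.39 and 0.59. Pola1, a subunit of DNA polymerase alpha, fell by 0.39 and 0.69, Mcm4 by 0.31 and 0.28, and Mcm5 in MitoNegative cells (-0.75, adjusted p = 0.0215; -0.47 in MitoPositive cells, adjusted p = 0.105). Between MitoPositive and MitoNegative cells, the lists of DNA maintenance, RNA processing, mitochondrial protein-coding and proliferation genes had 0 calls each. Only 0.165% of all tested genes were called there, so these counts are no result about the lists.

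**Figure D5:**
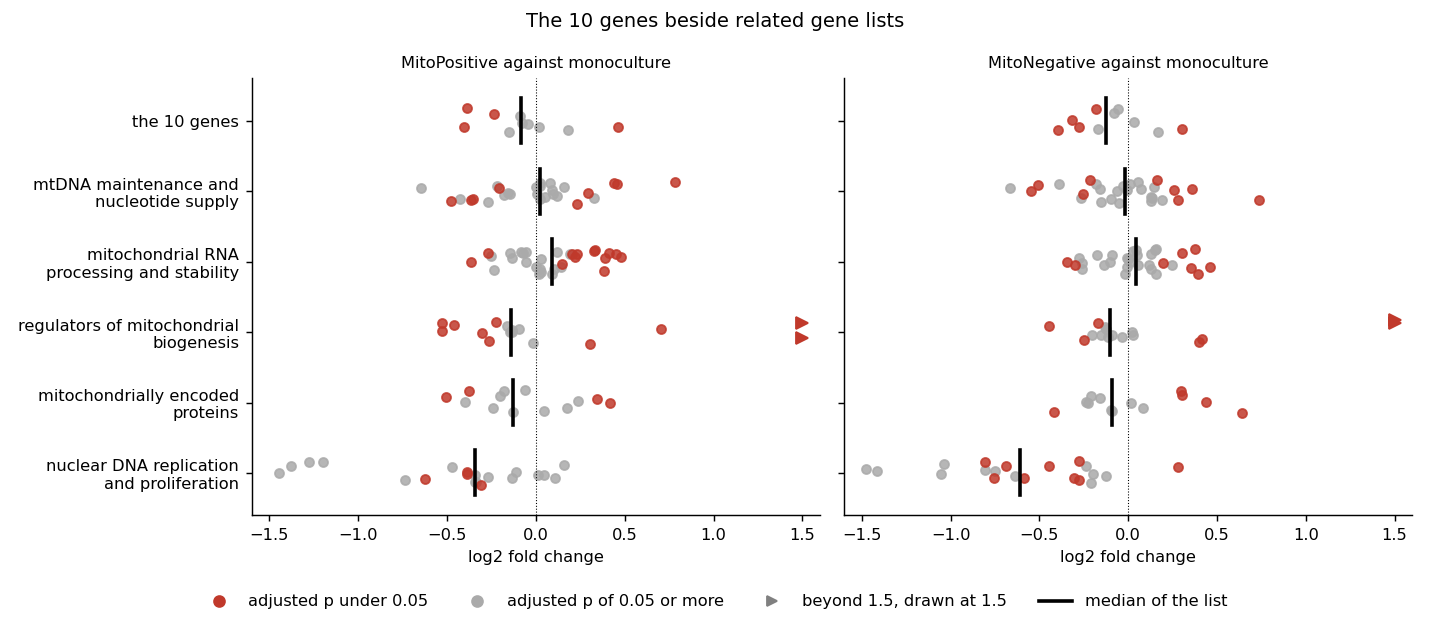
Log2 fold change (horizontal axis) of each tested gene among the 10 and in 5 related lists, for MitoPositive and MitoNegative cells against monoculture, red where the adjusted p was under 0.05, with a black line at each median and arrowheads for values beyond 1.5. The median of the nuclear DNA replication and proliferation genes is -0.34 and -0.61, and that of the 10 genes is -0.08 and -0.12.

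The genes with the most similar pattern over the 9 libraries were found by the smallest root mean square difference of centred log2 CPM among 10607 genes. For Polg these were Abtb1 (0.0358), Plekhm1 (0.0398) and Ncoa3 (0.0412), against a spread of Polg itself of 0.201 over the libraries and a median distance of 0.238 to all these genes. For Nrf1 they were Stambpl1 (0.0383), Nfyb (0.0429) and Rcor1 (0.0449), and for Ssbp1 Hnrnpr (0.0271), B230307C23Rik (0.0342) and Ost4 (0.0380). For Pprc1 they were Wdr75 (0.0423), the nucleoid-linked Atad3a (0.0493) and Pus7 (0.0534). The members were not among these candidates, so none could be listed as nearest to another. Measured separately, the member with the fewest candidates closer was Ssbp1 for Nrf1, at 0.092 with 347 closer. Polrmt and Nrf1 were the members nearest to Polg, at 0.134 and 0.136, and 1423 and 1499 other genes lay closer. Polg and Pprc1 were 0.399 apart, with 8746 genes closer.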

How the data were processed

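RNA-seq of 9 libraries was deposited by the authors as raw counts per gene, with gene coordinates and exon lengths. The submitters' processing notes name bcl2fastq, cutadapt, STAR 2.7, featureCounts and DESeq2, and the build GRCm38; annotation release and strandedness are not given in the sources used here. The deposited filtered table held the same counts and was used as a check only. The 99 spike-in rows had 0 counts and were left out.

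Counts were tested with edgeR 4.0.16 (R 4.3.3): TMM scaling, filterByExpr (minimum count 10, minimum total 15), a group design over all 9 libraries and quasi-likelihood tests, adjusted over 15711 genes. A gene was called at an adjusted p under 0.05. The code was tested on simulated counts. Samples were grouped by title. The 10 members and all lists were chosen with earlier results of these data known; from each list and comparison up to 4 called genes of largest change and mean log2 CPM of at least 1 were named, with exceptions marked. Same-letter residuals correlated over 0.1 in every pair for MitoPositive with MitoNegative (0.339 to 0.459) and MitoNegative with monoculture (0.111 to 0.213), but not MitoPositive with monoculture (0.0521 to 0.248). In total 20 alternative settings were tried. Sequences are from RefSeq.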

Additional observations from a re-analysis of the deposited data

How the results depend on the processing

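Polg in both comparisons with monoculture, and Nrf1 and Pprc1 in MitoPositive cells against monoculture, kept direction and call under all 20 alternatives. The count of genes called between MitoPositive and MitoNegative was least stable: 26 became 15 with DESeq2's size factors, 14 with total counts, 171 without the filter, 65 with only the 6 libraries compared, 418 with DESeq2, 367 with the replicate block, 2810 with only 6 libraries and the block, 0 without letter B, 0 without letter C and 120 without letter D. Leaving out 1 library gave 1 to 120. Of the calls, 53.8% were higher, against 66.7% with size factors and 71.4% with total counts. Without letter C, 4122 instead of 6637 genes were called in MitoPositive and 3495 instead of 6110 in MitoNegative cells against monoculture. Members called between sorted groups were 3 with only 6 libraries and the block. In MitoNegative cells against monoculture they were 3, 2 and 3 without letters B, C and D. Fewer of all tested genes were also called there without letter C, and the shares without B and D are not given here. The member counts without a letter are therefore no result about the members. Over all 9 libraries the replicate block also called Polrmt in MitoPositive cells against monoculture (adjusted p = 0.0471). In that comparison the block called 7508 instead of 6637 of all tested genes. Same-letter residuals correlated there at 0.0521 to 0.248, a range that overlaps the 0.111 to 0.213 of MitoNegative with monoculture. Beside the MitoNegative call of Polrmt, the block changed no other member's call. In MitoNegative cells Nrf1 (adjusted p = 0.114) and Ssbp1 (0.0893) were lost without letter C, and Pprc1 without B (0.128) or D (0.0522); Ssbp1 in MitoPositive cells was lost without C (0.169) or D (0.141). The signs that turned were all of uncalled differences: between sorted groups, Polrmt was -0.0038 without letter C and -0.0342 to 0.0733 leaving out 1 library, Polg 0.0027 with total counts, 0.0006 without the filter, 0.0194 without letter C and -0.0717 to 0.0216, and Twnk -0.0240 without letter D and -0.0302 to 0.0343. In MitoPositive cells against monoculture, Tfb2m was 0.0108 and Polg2 -0.1165 without letter D, Polg2 -0.0826 to 0.1016 leaving out 1 library. In MitoNegative cells Tfam was -0.0365 without letter B and -0.0278 to 0.0718 leaving out 1 library. The cause was not tested, beyond fewer samples in the fits that leave some out. The lowest count of any member in a library was 562 reads.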
